A study of Mus musculus with 16 samples.

Results

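The subunits of the mitochondrial respiratory chain were examined in RNA of mouse monocytes cultured with or without IFN-γ plus CD40L. Members were picked by symbol, under a rule chosen with earlier results of these data known. They are the rows of the deposited table whose symbol begins with Nduf followed by a, b, c, s or v and a digit, with Uqcr, with Cox4 to Cox8 or with Atp5, together with Sdha, Sdhb, Sdhc and Sdhd. This gave 78 of 13085 genes, of which 35 belong to complex I, 4 to complex II, 8 to complex III, 15 to complex IV and 16 to complex V. In this grouping Ndufa4 counts as complex IV, where its protein is known to sit despite its name. Of the 78, 76 encode subunits and 2 encode related factors, namely Cox7a2l, which helps complexes III and IV to assemble into larger units, and Atp5s, a coupling factor of ATP synthase. All 78 passed the filter on low values, which required at least 1 CPM (counts per 1e6 reads of library size, as the authors scaled it) in at least 2 of 16 libraries.

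The respiratory chain sits in the inner mitochondrial membrane. Complexes I and II pass electrons from NADH and succinate to a quinone, complex III passes them to cytochrome c and complex IV to oxygen, and complex V, the ATP synthase, uses the proton gradient that complexes I, III and IV build. Most subunits are encoded in the nucleus and imported, while a few core subunits of complexes I, III, IV and V are encoded by mitochondrial DNA (mtDNA), and complex II is also an enzyme of the citric acid cycle. Activated macrophages are known for a shift of their energy metabolism toward glycolysis and for making itaconate, an inhibitor of complex II.

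Monocytes came from NFAM1+/+ and NFAM1-/- mice of strain C57BL/6, the latter lacking exons 2 and 3 of Nfam1 after CRISPR deletion. NFAM1 is a receptor of the cell surface, and the study asked how its loss affects activation of monocytes. Cells were left unstimulated or given IFN-γ together with MegaCD40L, a multimeric form of CD40L, and were collected after 6 or 24 h, which gave 8 groups of 2 libraries, or 4 libraries for each combination of stimulus and time. The cell type tag names blood monocytes whereas the study's methods isolate mouse monocytes from bone marrow, and the IFN-γ dose differs between the labels and the methods. For each genotype the study names fewer mice than there are libraries, so libraries of different conditions can share an animal. Which libraries do, whether the 2 libraries of a group came from separate animals, and the age of the mice are not given in the sources used here. The fits treat libraries as independent, so p-values measure the spread between these libraries. At 24 h the genotype tag of 4 libraries goes against their title. Groups follow the title, and several counts and medians over all members are also given without those 4 libraries. Counts by complex and by gene list at 24 h are given with them only.

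The libraries held 48295939 to 88514341 reads on the listed genes. The authors' scaling sets these totals against sizes that differ by stimulus: the reads amounted to 0.756 to 0.788 of the scaled size in unstimulated libraries, 1.241 to 1.316 at 6 h with the stimulus and 0.970 to 0.997 at 24 h with it. A gene therefore stands higher with the stimulus on the deposited scale than as a share of its library's own reads, by 0.73 (log2) at 6 h and 0.33 at 24 h for every gene. Directions below are those of the deposited scale unless the scale of each library's own total is named, and values between 0 and these shifts change sign on the latter. On the deposited scale the median of all genes tested differed by -0.13 (log2) between stimulated and unstimulated libraries at 6 h and by 0.01 at 24 h, and on the scale of each library's own total by -0.86 and -0.33. By title, Nfam1 was at 432 and 408 CPM in NFAM1+/+ against 299 and 321 CPM in NFAM1-/- libraries, unstimulated at 6 h, but at 133 and 129 against 135 and 127 CPM with the stimulus. At 24 h it was at 463 and 495 against 441 and 391 CPM unstimulated and at 271 and 252 against 201 and 223 CPM stimulated, apart by title but overlapping by tag, and the genotype difference was called in none of the 4 conditions but over their mean (-0.24 ± 0.04; limma, adjusted p = 0.0082). Summed over the whole gene, these values check a deletion of 2 exons only weakly. The 10 monocyte markers together ranged from 22760 to 31378 CPM without and from 9274 to 12498 CPM with the stimulus. Neutrophil markers (5 of 5 listed) reached 23.2 to 70.0, 26.2 to 85.1, 158 to 277 and 37.3 to 65.9 CPM in unstimulated and stimulated libraries at 6 h and then at 24 h, and the 4 erythroid markers 3.78 to 15.5, 8.09 to 43.2, 3.43 to 20.3 and 0.879 to 3.40 CPM. Of the B, T, NK cell and platelet markers, 2 of 4, 1 of 4, 0 of 3 and 2 of 3 were listed, and none of these lists summed to more than 17.4 CPM. The part of these cells in the differences below was not tested, and in bulk RNA fewer cells of a type cannot be told apart from less RNA per cell.

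With the stimulus, nuclear subunits stood somewhat above the run of genes at both times, and the complexes did not move alike. At 6 h, 34 of 78 members were higher and 19 lower on the deposited scale (limma, Benjamini-Hochberg adjusted p under 0.05), beside 35.0% and 43.3% of all genes tested. On the scale of each library's own total 5 were higher and 70 lower, with all genes at a median of -0.86. Shares of all genes are given for the deposited scale only. Counts on other scales, here and below, therefore do not set members apart from other genes. The members' median log2 difference, stimulated minus unstimulated, was 0.08, which is 0.21 above the median of all genes. The shift between the 2 scales is the same for every gene and cannot change this gap. At 24 h, 48 members were higher and 11 lower, beside 38.3% and 36.5% of all genes. On the own-total scale 20 were higher and 34 lower, with all genes at a median of -0.33. The members' median difference was then 0.25, which is 0.24 above that of all genes. After quantile normalization, for which values are given below, the gap was smaller at both times. Without the 4 libraries whose title and tag differ, 43 were higher and 8 lower at 24 h, with the median 0.32 above that of all genes. Changes of at least 2-fold were few: 3 higher and 2 lower at 6 h and 5 higher and 2 lower at 24 h, where 19.1% and 20.6%, and then 14.6% and 18.7%, of all genes passed in each direction. Separation of stimulated from unstimulated libraries without overlap was common. At 6 h the stimulated libraries stood above in 26 members and below in 15, beside 32.5% and 39.4% of all genes. At 24 h they did so in 41 and 9, beside 35.4% and 33.5%.

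**Figure D1:**
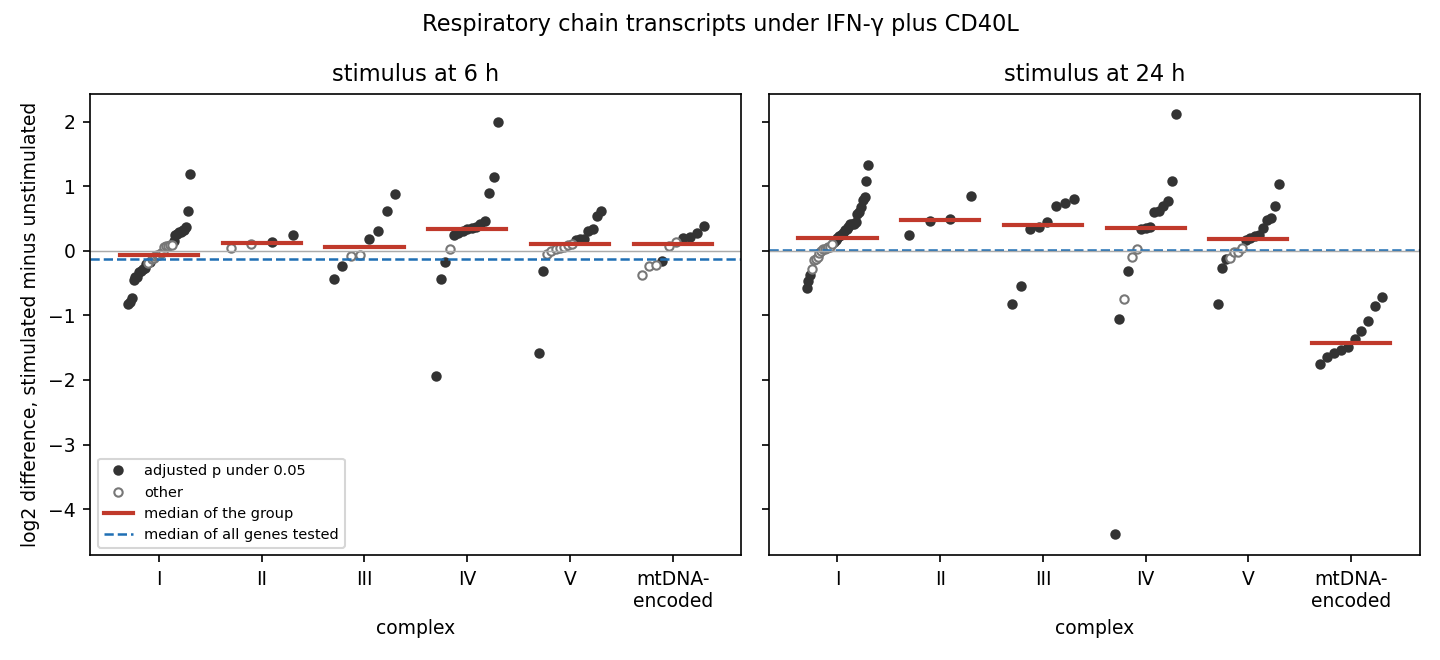
Each point is 1 gene, placed by its log2 difference between the 4 stimulated and 4 unstimulated libraries at 6 h (left) and 24 h (right) on the deposited scale, by complex, with the 10 mtDNA-encoded subunits on the far right of each panel. Filled points passed an adjusted p of 0.05, red bars are medians and the dashed line is the median of all genes tested. At 6 h the medians lie between -0.07 (complex I) and 0.33 (complex IV), and at 24 h the mtDNA-encoded genes lie between -1.75 and -0.72 while the nuclear medians lie between 0.18 and 0.47.

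Complex I is the entry point for electrons from NADH. Of its 35 members 10 were higher and 12 lower at 6 h on the deposited scale, beside 35.0% and 43.3% of all genes. The median difference was -0.07. At 24 h 20 were higher and 3 lower, beside 38.3% and 36.5% of all genes, with a median of 0.20. On the own-total scale these counts were 1 higher and 33 lower, and then 6 higher and 17 lower. Accessory members, 28 of the 35, comprised 10 higher and 7 lower at 6 h and 16 higher and 2 lower at 24 h.

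Ndufs7 carries the iron-sulfur cluster that hands electrons to the quinone. It was at 30.4, 33.9, 34.3 and 35.2 CPM in the unstimulated libraries at 6 h and at 15.8, 20.2, 21.1 and 20.2 CPM in the stimulated ones. By 24 h it was at 35.0, 40.1, 43.8 and 38.3 CPM without and at 63.8, 57.5, 59.2 and 57.4 CPM with the stimulus. The libraries did not overlap at either time, and the order turned from below to above. The log2 difference was -0.80 ± 0.08 (SE) at 6 h and 0.60 ± 0.08 at 24 h, and the difference between these, 1.40 ± 0.11, passed the test (limma, adjusted p = 1.02e-07). On the own-total scale the values were -1.53 and 0.27. Ndufv1, Ndufv2 and Ndufa8 were likewise called lower at 6 h and higher at 24 h on the deposited scale, as was Uqcrc1 of complex III, and no member was called higher at 6 h and lower at 24 h. The share of all genes with either turn was not computed.

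Ndufs8, a partner of Ndufs7 in the core, was at 58.7 to 61.5 CPM without and 31.5 to 38.4 CPM with the stimulus at 6 h, and at 56.3 to 64.7 and 43.5 to 48.1 CPM at 24 h. Its log2 difference was -0.82 ± 0.05 and then -0.37 ± 0.05, with no overlap of libraries at either time. Ndufv3, an accessory subunit, was at 21.7 to 23.0 and 12.4 to 14.7 CPM at 6 h, a difference of -0.73 ± 0.08. At 24 h its libraries overlapped, at 22.5 to 29.1 and 27.1 to 28.0 CPM, and the difference of 0.10 ± 0.08 did not pass the test (limma, adjusted p = 0.235).

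Ndufs4, an accessory subunit needed for full assembly of complex I, showed the largest rise in that complex at both times. Its level was 30.8, 32.6, 30.9 and 29.4 CPM in unstimulated and 67.9, 66.6, 74.7 and 72.5 CPM in stimulated libraries at 6 h. At 24 h the values were 21.2, 29.3, 25.4 and 27.2 against 69.3, 58.3, 61.8 and 68.4 CPM. Every stimulated library stood above every unstimulated one, and the log2 differences were 1.19 ± 0.07 and 1.33 ± 0.07 (limma, adjusted p = 2.38e-09 and 8.65e-10). It remained higher on the own-total scale, by 0.46 and 1.00. Ndufc2, a small subunit of the membrane arm, was at 23.5 to 25.9 and 27.4 to 28.5 CPM at 6 h and at 24.5 to 31.0 and 48.0 to 64.9 CPM at 24 h, with log2 differences of 0.15 ± 0.07 and 1.08 ± 0.07. Its difference of 0.15 at 6 h became -0.58 on the own-total scale. Ndufb11 of the membrane arm fell at both times, by 0.33 and 0.58 on the log2 scale, and Ndufa12 fell by 0.47 at 24 h, where 10.4 to 10.9 CPM stood against 6.48 to 8.66 CPM. At 6 h Ndufa12 was at -0.02 on the deposited scale and at -0.75 on the own-total scale, where it was called lower.

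Complex II oxidizes succinate and has 4 subunits, all encoded in the nucleus. At 24 h all 4 were higher with the stimulus on the deposited scale, beside 38.3% of all genes. On the own-total scale Sdhb and Sdhd were still called higher while Sdha was at -0.09. The flavoprotein Sdha was at 142 to 169 CPM without and 168 to 186 CPM with the stimulus (0.24 ± 0.05), and these libraries overlapped. The iron-sulfur subunit Sdhb was at 117, 152, 132 and 110 CPM without and 187, 167, 171 and 186 CPM with it (0.49 ± 0.05). Sdhc, a membrane anchor, was at 54.3 to 66.2 against 76.2 to 88.8 CPM (0.46 ± 0.05). The other anchor, Sdhd, moved most, from 82.4, 89.9, 86.9 and 77.0 to 160, 147, 146 and 154 CPM (0.85 ± 0.04; limma, adjusted p = 2.65e-10).

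At 6 h differences in complex II were small on the deposited scale. Sdhd was at 73.4 to 82.7 and 81.4 to 90.4 CPM and Sdhc at 55.5 to 58.4 and 60.5 to 71.5 CPM, with called differences of 0.14 ± 0.04 and 0.25 ± 0.05 that became -0.59 and -0.48 on the own-total scale. Sdha and Sdhb differed by 0.04 and 0.10 and did not pass the test on the deposited scale. The shift between the scales is the same for every gene, so on the own-total scale both lay lower than Sdhc and Sdhd. All 4 genes were called for a larger difference at 24 h than at 6 h, beside 35.2% of all genes. The change was 0.20 (Sdha) to 0.71 (Sdhd), while the median of all genes for that contrast was 0.04.

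In complex III, 4 of 8 members were higher and 2 lower at 6 h, beside 35.0% and 43.3% of all genes on the deposited scale. At 24 h 6 were higher and 2 lower, beside 38.3% and 36.5%. Uqcrfs1, the Rieske iron-sulfur subunit, was at 93.9 to 102 against 143 to 158 CPM at 6 h and at 78.1 to 87.6 against 138 to 151 CPM at 24 h. Its log2 differences were 0.61 ± 0.05 and 0.80 ± 0.05, and -0.12 and 0.47 on the own-total scale. Uqcrq, a small subunit near the quinone site, was at 54.0 to 66.6 against 105 to 119 CPM and at 39.7 to 49.8 against 70.2 to 76.9 CPM, or 0.88 ± 0.06 and 0.74 ± 0.06 (0.15 and 0.41 on the own-total scale). Neither gene had overlapping libraries. Uqcrh, the hinge subunit that holds cytochrome c1, was lower at 24 h on both scales and at 6 h on the own-total scale only (-0.81). On the deposited scale its libraries overlapped at 6 h (90.5, 98.4, 104 and 97.8 against 74.0, 97.1, 98.8 and 101 CPM) and lay apart at 24 h (94.8, 93.9, 88.9 and 90.9 against 53.1, 50.6, 50.5 and 53.6 CPM). The difference at 24 h was -0.83 ± 0.07, and that between the times, -0.74 ± 0.10, passed the test (limma, adjusted p = 1.62e-05).

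Complex IV, cytochrome c oxidase, reduces oxygen and holds several subunits that exist as tissue forms encoded by paired genes. At 6 h it had the highest median of the complexes, 0.33 on the deposited scale. There 11 of 15 members were higher and 3 lower, beside 35.0% and 43.3% of all genes. On the own-total scale 3 were higher and 11 lower with a median of -0.40. At 24 h, 9 were higher and 3 lower on the deposited scale, beside 38.3% and 36.5% of all genes. The median was then 0.35 (0.02 on the own-total scale). Cox7a2, the widely expressed form of subunit VIIa, was at 57.0, 56.8, 57.6 and 57.7 CPM without and at 116, 124, 137 and 131 CPM with the stimulus at 6 h. At 24 h the values were 36.1, 43.1, 40.0 and 38.4 against 87.9, 81.5, 79.5 and 82.8 CPM. Levels were thus about doubled at each time without overlap, by 1.15 ± 0.05 and 1.08 ± 0.05 on the log2 scale, and by 0.42 and 0.74 when scaled to own totals. Cox7b, a small subunit without a close second form among the members, was at 50.2 to 54.3 against 82.4 to 108 CPM at 6 h and at 40.9 to 50.1 against 52.1 to 63.4 CPM at 24 h. Its difference shrank from 0.89 ± 0.06 to 0.34 ± 0.06, a called change of -0.55 ± 0.09, and on the own-total scale it was 0.16 and then 0.00.

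Ndufa4 had the largest fall at 24 h in complex IV after Cox6b2. In unstimulated libraries it stood at 69.8, 75.1, 73.2 and 66.6 CPM at 6 h and at 60.2, 71.8, 71.6 and 67.9 CPM at 24 h. In stimulated ones it was at 53.9, 62.7, 69.1 and 66.9 CPM at 6 h and at 38.3, 29.6, 27.7 and 35.6 CPM at 24 h. The groups overlapped at 6 h and were well apart at 24 h, where all 4 stimulated libraries held fewer CPM than any other library of the series. The log2 differences were -0.18 ± 0.06 and -1.06 ± 0.06 (limma, adjusted p = 0.0206 and 2.17e-09), and the change between times was -0.88 ± 0.09. When each library was centred on the median of its genes, the difference at 6 h was -0.01.

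AA467197, the mouse counterpart of human C15ORF48, encodes a paralog of Ndufa4 that is known to be able to take its place in complex IV. Its symbol does not match the rule, and it is given because it bears on Ndufa4. It was at 2.51, 3.22, 1.43 and 1.64 CPM in unstimulated libraries at 6 h and at 426, 245, 233 and 246 CPM in stimulated ones. At 24 h it was at 1.72, 2.03, 1.43 and 1.64 against 292, 379, 383 and 257 CPM. The log2 differences were 7.06 ± 0.15 and 7.58 ± 0.15 (limma, adjusted p = 2.43e-14 and 2.55e-14). Per length of exon, AA467197 was at 0.0225 to 0.0492 times the level of Ndufa4 in the unstimulated libraries of both times, at 3.88 to 9.06 times in the 4 stimulated libraries at 6 h and at 8.28 to 15.9 times in those at 24 h. Both libraries titled NFAM1+/+ held the lower Ndufa4 and the higher AA467197 at 24 h with the stimulus, and the genotype difference of Ndufa4 there, 0.37 ± 0.09, was not called (limma, adjusted p = 0.0545). By the genotype tag, 1 of these 2 libraries belongs to the other genotype.

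**Figure D2:**
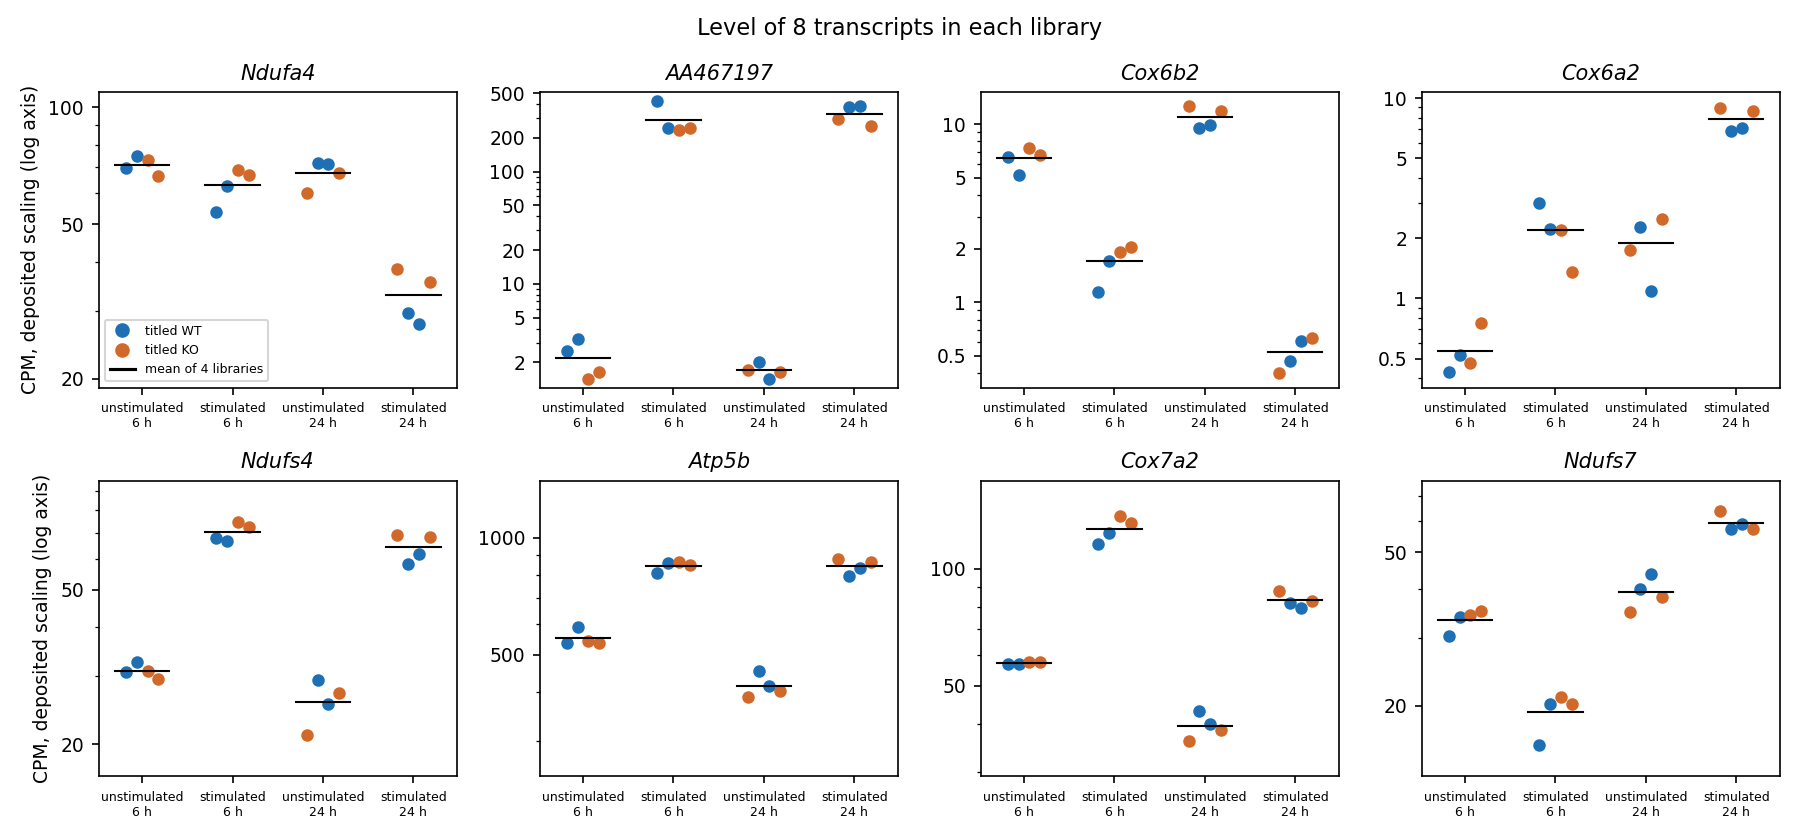
CPM on the deposited scale (log axis, a range of its own in each panel) of 8 transcripts in each library, coloured by the genotype of the title (WT, NFAM1+/+ and KO, NFAM1-/-), with the mean of 4 libraries as a bar. AA467197 rose from at most 3.22 to at least 233 CPM while Ndufa4 went from at least 53.9 to at most 38.3 CPM with the stimulus between 6 and 24 h, and Ndufs7 was lowest with the stimulus at 6 h and highest with it at 24 h.

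The paired forms of complex IV subunits VIb and VIa were compared next. Cox6b1, the widely expressed form of subunit VIb, was at 96.1 to 100 against 107 to 135 CPM at 6 h and at 80.0 to 96.2 against 109 to 114 CPM at 24 h (0.31 ± 0.05 and 0.35 ± 0.05, but -0.42 and 0.02 on the own-total scale). Cox6b2, best known from testis, was at 6.56, 5.17, 7.35 and 6.68 CPM without and 1.14, 1.71, 1.92 and 2.05 CPM with the stimulus at 6 h, and at 12.6, 9.50, 9.90 and 11.8 against 0.399, 0.467, 0.607 and 0.634 CPM at 24 h. It fell by 1.94 and 4.39 on the log2 scale (SE 0.19 each), the largest falls of any member at either time, and 26 reads or more lay behind each value. For subunit VIa, the widely expressed Cox6a1 was at 83.9 to 105 against 106 to 141 CPM and at 75.5 to 90.8 against 117 to 131 CPM (0.46 ± 0.07 and 0.62 ± 0.07, but -0.27 and 0.29 on the own-total scale). Cox6a2, the form of heart and skeletal muscle, was at 0.430, 0.521, 0.474 and 0.756 against 3.00, 2.23, 2.19 and 1.35 CPM, and at 1.75, 2.27, 1.09 and 2.49 against 8.95, 6.84, 7.10 and 8.62 CPM. Its differences of 1.99 ± 0.27 and 2.11 ± 0.27 were the largest rises of any member, at a level that stayed below 9 CPM.

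Cox6a2 shares 70 bases of exon with Itgad on the opposite strand, and the libraries do not keep strand. In all, 18 members share exon bases with another listed gene, among them Atp5a1, Cox4i1, Ndufa11, Ndufb11 and Ndufs6. The part of these overlaps in the members' values was not tested. Itgad itself was at 0.172 to 1.74 CPM and fell by 1.44 on the log2 scale at 24 h. The muscle form of subunit VIIa, Cox7a1, stayed at 0.202 to 1.29 CPM and was not called at either time (0.03 ± 0.34 and -0.74 ± 0.34). Cox7a2l was at 112 to 141 against 91.1 to 99.3 CPM at 6 h and at 163 to 179 against 135 to 145 CPM at 24 h, falls of 0.43 and 0.31 on the log2 scale. Cox4i1 and Cox8a, whose second forms were not among the listed genes, differed by 0.25 ± 0.04 and 0.37 ± 0.06 at 6 h and by 0.02 ± 0.04 and 0.69 ± 0.06 at 24 h, and both values at 6 h turn negative (-0.48 and -0.36) on the own-total scale. Levels per length showed the same ranks of the forms in all conditions: at 24 h with the stimulus Cox6a1 was at 175 ± 8.18 (SD, n = 4) and Cox6a2 at 11.6 ± 1.56 CPM per kb of exon, and Cox6b1 was at 158 ± 3.12 and Cox6b2 at 0.475 ± 0.101.

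In complex V, 7 of 16 members were higher and 2 lower at 6 h, beside 35.0% and 43.3% of all genes on the deposited scale. At 24 h 9 were higher and 3 lower, beside 38.3% and 36.5%. On the own-total scale 0 were higher at 6 h and 3 at 24 h. The shift between the scales is the same for every gene, and the largest difference at 6 h, 0.62 (Atp5b), was -0.11 after it. All 16 differences were therefore negative at 6 h on that scale. Atp5b, the catalytic β subunit, was at 536, 589, 543 and 537 against 810, 859, 863 and 848 CPM at 6 h and at 388, 455, 415 and 402 against 880, 798, 837 and 866 CPM at 24 h. There was no overlap, and the differences were 0.62 ± 0.05 and 1.03 ± 0.05 (limma, adjusted p = 4.21e-08 and 1.88e-10), of which the first was -0.11 on the own-total scale and -0.43 after quantile normalization. The partner subunit Atp5a1 was at 503 to 533 against 535 to 608 CPM and at 431 to 453 against 498 to 542 CPM, or 0.18 ± 0.05 and 0.23 ± 0.05, but -0.55 and -0.11 on the own-total scale and -0.83 and -0.30 after quantile normalization. Atp5s was at 1.23 to 1.54 against 0.301 to 0.613 CPM at 6 h and at 1.33 to 2.38 against 0.823 to 1.33 CPM at 24 h (-1.58 ± 0.29 and -0.82 ± 0.29). The c subunit of the rotor is made from 3 genes that give the same mature protein. Of these Atp5g3 differed by 0.16 ± 0.05 (-0.57 on the own-total scale) and 0.35 ± 0.05, Atp5g2 by -0.00 ± 0.05 and -0.13 ± 0.05 and Atp5g1 by 0.05 ± 0.06 and -0.11 ± 0.06, and Atp5g1 was called at neither time. Per kb of exon, Atp5g3 was at 57.2 ± 2.04, Atp5g2 at 27.9 ± 1.28 and Atp5g1 at 7.65 ± 0.442 CPM (SD, n = 4) in unstimulated libraries at 6 h. Length here is that of all annotated exons merged, 2181, 1675 and 4912 bases in the same order. Without division by length, the means were 125, 46.7 and 37.6 CPM, so the gap between Atp5g2 and Atp5g1 rests largely on this length.

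Levels per length covered a wide range among the 77 members with 1 annotated gene. They divide by all annotated exons of a gene merged, which can be longer than the RNA made, so ranks between genes are approximate. In unstimulated libraries at 6 h Atp5a1 was highest with 164 ± 4.37 CPM per kb of exon (SD, n = 4), followed by Cox8a with 150 ± 9.46, Cox4i1 with 141 ± 7.98 and Cox6b1 with 138 ± 2.81. Neighbours among the last 3 lie within their spread of each other. Atp5s was lowest with 0.681 ± 0.0635, just below Cox6a2 with 0.802 ± 0.214, and the median was 33.7. Ndufa4 held rank 21 of 77 in these libraries, 28 with the stimulus at 6 h, 19 unstimulated at 24 h and 55 with the stimulus at 24 h.

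**Figure D3:**
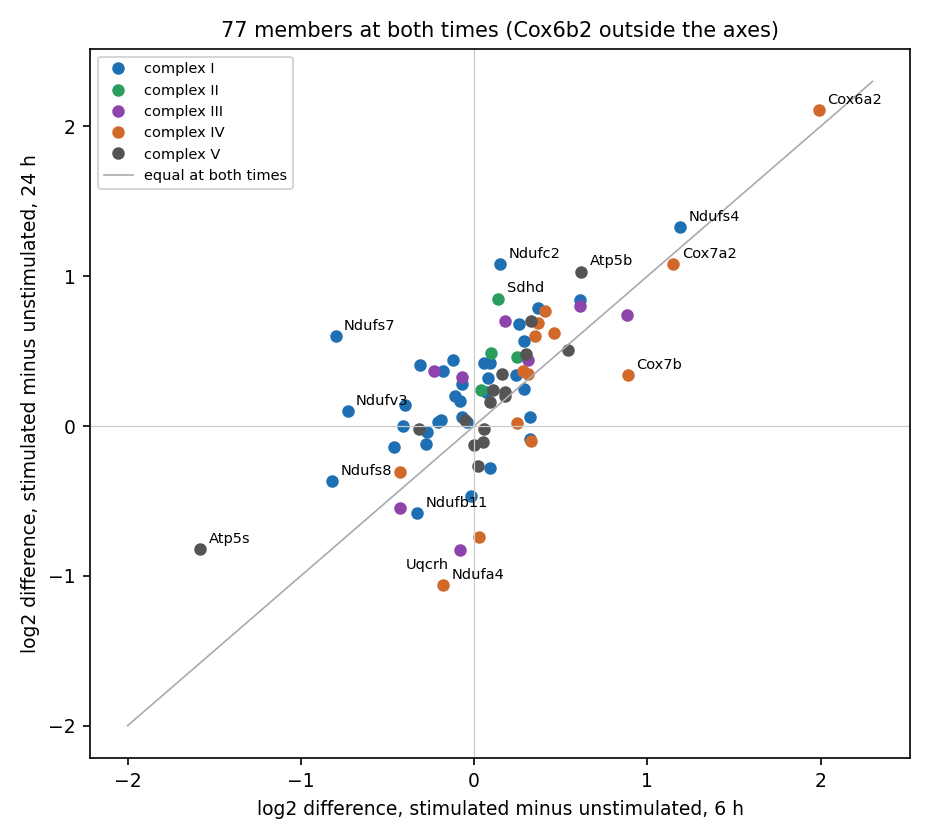
Log2 differences of 77 members between stimulated and unstimulated libraries at 6 h (horizontal) and 24 h (vertical), coloured by complex, with the line of equal values; Cox6b2, at -1.94 and -4.39, lies outside the axes. Ndufs7 lies far above the line (-0.80 and 0.60), and Ndufa4 (-0.18 and -1.06) and Uqcrh (-0.08 and -0.83) lie far below it.

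Between the times, 45 of 78 members were called for a different response, 34 toward higher and 11 toward lower at 24 h, beside 35.2% and 32.0% of all genes on the deposited scale. The split was 65 and 3 on the own-total scale (all genes at a median of 0.44) and 17 and 17 after centring (all genes at -0.11). Without the 4 libraries whose title and tag differ it was 32 and 7. Members stood at a median of 0.18, and all genes at 0.04. Complex I accounted for 19 of the 34, and 5 of the 11 were in complex IV. After Ndufs7 (1.40) the largest positive changes were those of Ndufc2 (0.93), Ndufv3 (0.83), Ndufv2 (0.72) and Sdhd (0.71), and the largest negative ones were those of Cox6b2 (-2.45), Ndufa4 (-0.88), Uqcrh (-0.74), Cox7b (-0.55) and Ndufa12 (-0.46). Members called higher at both times numbered 30, and those lower at both times 7, namely Atp5s, Cox6b2, Cox7a2l, Ndufa4, Ndufb11, Ndufs8 and Uqcr11. Shares of all genes in these classes were not computed, so the counts do not set members apart from other genes.

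Members were also compared between the times. Without the stimulus 19 were higher and 31 lower at 24 h than at 6 h, beside 34.3% and 30.1% of all genes, and the median was -0.08 with all genes at 0.04. Cox5b, a zinc-binding subunit of complex IV, fell from 109, 117, 119 and 105 to 64.3, 79.8, 69.6 and 63.9 CPM (-0.70 ± 0.06). The next largest falls were in Cox7a2 (-0.54), Uqcrq (-0.47), Atp5b (-0.41) and Ndufa11 (-0.40), and the largest rises in Cox6a2 (1.77), Cox6b2 (0.77), Ndufa12 (0.44), Cox7a2l (0.41) and Uqcr11 (0.35). With the stimulus 33 were higher and 18 lower at 24 h, beside 39.7% and 36.7% of all genes on the deposited scale. The counts were 62 and 10 on the own-total scale and 21 and 35 after centring, with all genes at medians of 0.41 and -0.13. Complex I had 19 higher and 3 lower and a median of 0.21, while complex IV had 5 higher and 8 lower and a median of -0.34, on the deposited scale. The largest falls were in Cox6b2 (-1.68), Cox7a1 (-1.23), Ndufa4 (-0.95), Uqcrh (-0.83) and Cox7b (-0.72). The largest rises were in Cox6a2 (1.89), Ndufs7 (1.63), Atp5s (1.13), Ndufc2 (1.06) and Ndufv3 (1.04). These comparisons share libraries with those of the stimulus and are not independent of them.

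At 24 h the subunits encoded by mtDNA moved opposite to the median of the nuclear ones on the deposited scale, while at 6 h both medians were close on either scale. Of 13 such genes 10 were listed, and at 24 h all 10 were lower with the stimulus, beside 36.5% of all genes on the deposited scale. They fell by 0.72 to 1.75 on the log2 scale with a median of -1.43 (-1.76 on the own-total scale). At 6 h 4 were higher and 1 lower with a median of 0.11, beside 35.0% and 43.3% of all genes. On the own-total scale all 10 were lower at 6 h with a median of -0.62. mt-Nd1, a complex I subunit, was at 1021, 1071, 1166 and 1167 CPM without and 359, 405, 332 and 320 CPM with the stimulus at 24 h. mt-Cytb, the core of complex III, was at 1528, 1670, 1823 and 1594 against 556, 666, 601 and 468 CPM, and mt-Co1 of complex IV at 3707, 3936, 4350 and 4073 against 2117, 2374, 2251 and 2087 CPM. As a share of the listed reads the 10 took 1.12 to 1.26% without and 0.779 to 0.891% with the stimulus at 6 h, and 1.18 to 1.36% and 0.389 to 0.471% at 24 h. For the 78 nuclear members these shares were 0.702 to 0.748%, 0.443 to 0.531%, 0.634 to 0.706% and 0.624 to 0.711%, in the same order. Poly(A) selection captures mtDNA-encoded RNA unevenly, and near-identical nuclear copies can take its reads, so mt-Atp6, mt-Co2 and mt-Co3, at 3.62 CPM or less, are uncertain.

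**Figure D4:**
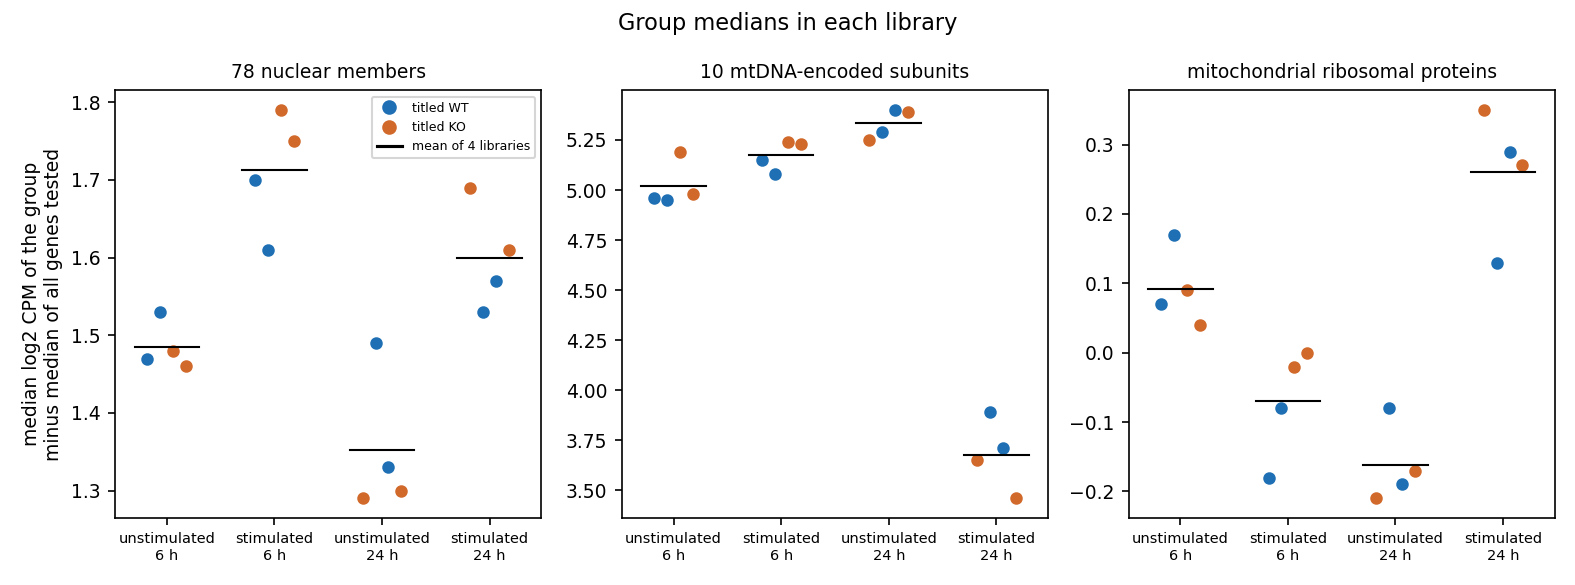
Median log2 CPM of the nuclear members, the mtDNA-encoded subunits and the mitochondrial ribosomal proteins (panels from left to right) minus the median of all genes tested in the same library, by condition and genotype of the title, with the mean of 4 libraries as a bar; the vertical axes differ. The nuclear members lie at 1.46 to 1.53, 1.61 to 1.79, 1.29 to 1.49 and 1.53 to 1.69 in the 4 conditions from left to right, and the mtDNA-encoded subunits drop to 3.46 to 3.89 with the stimulus at 24 h from 4.95 or more elsewhere.

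Other genes of the same pathways gave a mixed picture. Beside the counts below, 35.0% of all genes were higher and 43.3% lower at 6 h on the deposited scale. At 24 h these shares were 38.3% and 36.5%. Mitochondrial ribosomal proteins, which translate the mtDNA-encoded subunits, were lower in 52 and higher in 8 of 77 genes at 6 h, and higher in 36 and lower in 9 at 24 h on the deposited scale (2 higher and 74 lower, then 19 higher and 24 lower, on the own-total scale). Cytosolic ribosomal proteins were higher in 16 and lower in 10 of 84 at 6 h on the deposited scale, and in 0 and 82 on the own-total scale. At 24 h they were lower in 79 on the deposited and in 80 on the own-total scale. Assembly factors of the complexes (43 of 47 listed) were higher in 11 and lower in 21 at 6 h and higher in 22 and lower in 7 at 24 h, with medians of -0.30 and 0.31. The 22 genes of the citric acid cycle and pyruvate dehydrogenase, which include the 4 of complex II, had medians of -0.16 and 0.36, and the 20 genes of glycolysis medians of -0.22 and 0.53. On the own-total scale the medians of these 3 lists at 24 h were -0.03, 0.03 and 0.20, with all genes at -0.33. Of 6 further nuclear subunits and electron carriers, 2 were higher and 1 lower at 6 h and 4 were higher and 1 lower at 24 h. Cytochrome c (Cycs), which carries electrons from complex III to complex IV, was at 45.6 to 54.1 against 161 to 183 CPM at 6 h and at 28.4 to 33.5 against 83.0 to 110 CPM at 24 h, differences of 1.80 ± 0.07 and 1.62 ± 0.07 (1.07 and 1.29 on the own-total scale).

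Acod1, the enzyme that makes itaconate, was at 122 to 225 against 5341 to 7851 CPM at 6 h and at 25.1 to 90.6 against 4223 to 5470 CPM at 24 h (5.06 ± 0.14 and 6.54 ± 0.14). Among 16 regulators of mitochondrial biogenesis, 6 were higher and 6 lower at 6 h and 6 higher and 7 lower at 24 h. The shares of all genes were 35.0% and 43.3%, and then 38.3% and 36.5%. The coactivator Ppargc1b was at 0.146 to 0.354 CPM without and 6.28 to 10.3 CPM with the stimulus at 6 h, and at 1.94 to 4.50 against 6.18 to 14.1 CPM at 24 h (5.03 ± 0.20 and 1.50 ± 0.20). Tfam, which packages and transcribes mtDNA, differed by 0.58 ± 0.07 and 0.60 ± 0.07, and Nrf1, an activator of many nuclear mitochondrial genes, by 0.43 ± 0.06 and 0.24 ± 0.06. On the own-total scale Tfam was at -0.15 and 0.27 and Nrf1 at -0.30 and -0.09.

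Promoters were searched for the letters of 4 factors known to act on such genes, in windows of 300 bases that start 250 bases before the transcription start given by RefSeq (GRCm38.p6). Of the 78 members 64 had such a window. On either strand GCATGCGC, the core of the NRF1 site, was found in 10 members (15.6%) and in 5.5% of the 9389 tested genes with a window. AAGATGGCG, a YY1 site, was found in 6 (9.38%) against 3.45%, TCAAGGTCA, a site of estrogen-related receptors, in 2 (3.12%) against 0.245%, and CCGGAAGT, an ETS site, in 5 (7.81%) against 8.91%. A match is a description of these letters only. The 200 bases before the start are shown for 3 members that hold the NRF1 letters there and took different courses with the stimulus: Sdhb, called higher at 24 h only, Cox6a1, called higher at both times, and Ndufa8, at 26.7 to 28.7 against 22.4 to 27.0 CPM at 6 h and 31.7 to 37.0 against 41.5 to 45.7 CPM at 24 h. They lie at chr4:140961071-140961270 (plus strand), chr5:115348959-115349158 (minus strand) and chr2:36049339-36049538 (minus strand), and capitals mark the NRF1 letters, which begin 54, 162 and 8 bases before the start and in Cox6a1 are 2 overlapping matches, 1 on each strand.
Sdhb: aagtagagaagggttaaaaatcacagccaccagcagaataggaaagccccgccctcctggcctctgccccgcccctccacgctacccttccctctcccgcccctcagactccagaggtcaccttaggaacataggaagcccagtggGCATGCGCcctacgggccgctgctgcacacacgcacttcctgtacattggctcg
Cox6a1: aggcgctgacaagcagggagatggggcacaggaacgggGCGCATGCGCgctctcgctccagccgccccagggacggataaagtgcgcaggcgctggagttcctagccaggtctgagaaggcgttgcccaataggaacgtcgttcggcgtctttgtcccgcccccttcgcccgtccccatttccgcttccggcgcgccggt
Ndufa8: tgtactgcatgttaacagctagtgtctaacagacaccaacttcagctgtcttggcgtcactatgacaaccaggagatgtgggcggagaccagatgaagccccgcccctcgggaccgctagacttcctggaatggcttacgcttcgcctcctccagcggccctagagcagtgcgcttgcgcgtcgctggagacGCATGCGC

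Between the genotypes no member was called when the 4 conditions were averaged (limma, 0 of 78; background 3.58% of all genes), nor in unstimulated libraries at 6 h (0.156% of all genes), stimulated libraries at 6 h (0%) or stimulated libraries at 24 h (2.10%). At an unadjusted p under 0.05 these 4 tests gave 10, 1, 37 and 14 members, beside 17.4%, 10.1%, 14.6% and 15.6% of all genes. In unstimulated libraries at 24 h (0.954%) 1 member was called. Ndufa11, an accessory subunit of the membrane arm of complex I, was at 32.7 and 32.0 CPM in the libraries titled NFAM1+/+ and at 23.3 and 24.7 CPM in those titled NFAM1-/-, a difference of -0.43 ± 0.09 (limma, Benjamini-Hochberg adjusted p = 0.0362). With the genotype tag in place of the title the difference was -0.03. Without the 4 libraries in conflict it was -0.46 from 1 library a group, and not called. Ndufa11 shares 70 bases of exon with Vmac on the opposite strand.

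Although no member was called, members leaned to 1 side with the stimulus at 6 h. Both libraries titled NFAM1-/- stood above both titled NFAM1+/+ in 62 of 78 members, beside 23.5% of all genes tested, and below them in 1, beside 18.9%. The median difference, NFAM1-/- minus NFAM1+/+, was 0.19 (log2), with all genes at 0.01, and 0.20 with all genes at 0.02 on the own-total scale. The medians of the members less that of all genes were 1.70 and 1.61 in the NFAM1+/+ libraries and 1.79 and 1.75 in the NFAM1-/- libraries. The same order held for the mtDNA-encoded subunits (5.15 and 5.08 against 5.24 and 5.23), the cytosolic ribosomal proteins (4.46 and 4.58 against 4.68 and 4.71) and the mitochondrial ribosomal proteins (-0.18 and -0.08 against -0.02 and -0.00). The smallest adjusted p among members belonged to Ndufs6, an accessory subunit of complex I, at 18.2 and 18.3 against 25.1 and 24.5 CPM (0.44 ± 0.09; limma, adjusted p = 0.111). With the NFAM1+/+ library numbered 10 left out, 12 members were called higher in NFAM1-/-, as were 4% of all genes, and with any other library left out no member was. That fit compares both NFAM1-/- libraries with library 26 alone, which is assumed to vary like the other groups and stood apart for Ndufs7 and Uqcrh. The test of a different response between the genotypes at 6 h called 0 members and 0% of all genes, with 14 members and 8.5% of all genes at an unadjusted p under 0.05.

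In unstimulated libraries at 6 h the members had a median genotype difference of 0.01, the same as all genes, and stood apart with NFAM1-/- above in 11 (21.8% of all genes) and below in 8 (20.3%). At 24 h, by title, the libraries of NFAM1-/- stood below those of NFAM1+/+ in 47 members without the stimulus, beside 23.5% of all genes, and above them in 6, beside 21.9%. With the stimulus they stood above in 48, beside 24.9%, and below in 3, beside 23.2%. The medians were -0.14 and 0.10, with all genes at -0.00 and 0.01. When the genotype tag replaced the title, the medians less that of all genes were 0.04 and 0.01, and without the 4 libraries in conflict they were -0.09 and 0.10, from 1 library a group.

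**Figure D5:**
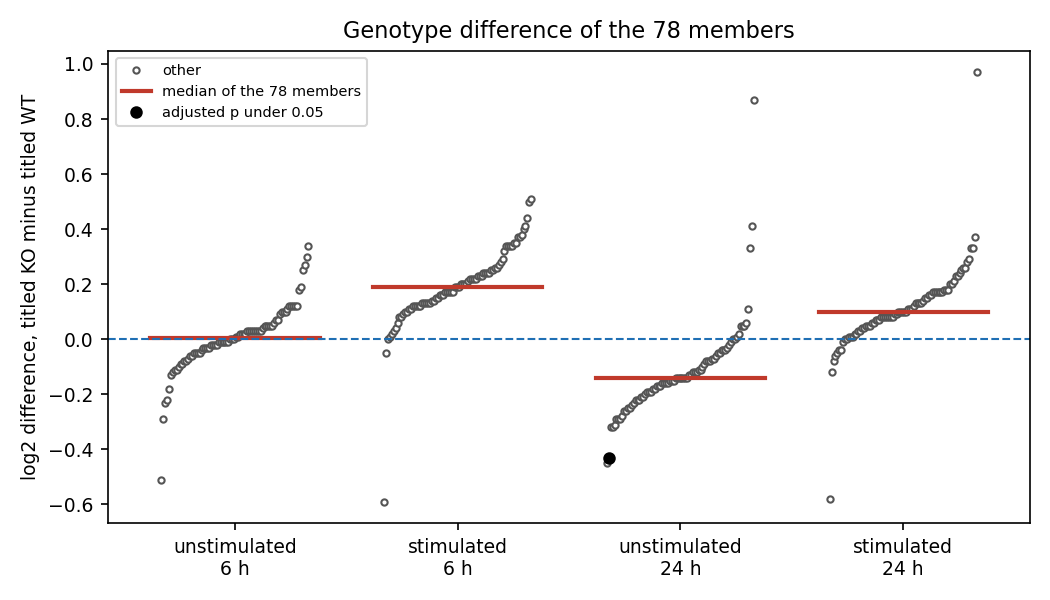
Log2 difference of each of the 78 members between libraries titled NFAM1-/- and NFAM1+/+ in each condition, 2 libraries a group, ordered by value. Red bars are medians, at 0.01, 0.19, -0.14 and 0.10 from left to right, the dashed line is 0, and the filled point is Ndufa11 at -0.43.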

How the data were processed

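Mouse monocyte RNA was sequenced from poly(A)-selected, non-stranded paired-end libraries. Per the study's methods, the authors aligned reads with STAR, counted them with Rsubread and normalized with edgeR. The submitters' processing notes name the build GRCm39. The authors deposited log2 values for 13085 genes in 16 libraries, which equal whole reads with 0.5 added (tolerance 0.01 of a read), divided by a scaled library size and multiplied by 1e6. CPM are 2 to the power of these values. Reads and depth were recovered from them, but no count model was run. Members and gene lists were chosen with earlier results of these data known.

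Values were fitted with limma 3.58.1 (R 4.3.3, moderated test with a trend) as 8 group means over 16 libraries, with 8 residual degrees of freedom. The filter of 1 CPM in 2 or more libraries left 12782 genes (303 below), with Benjamini-Hochberg adjustment over all of them and a call at an adjusted p under 0.05. Differences are means over the genotypes, with the SE. Named members are the 5 largest called falls and rises of each comparison, complex II, the paired forms and those called by genotype; other members given with values (Uqcrfs1, Atp5a1, Ndufa8, Ndufs6) and Cycs were chosen after their values were seen. Gene lengths (all annotated exons merged) and overlaps are from GENCODE vM21 (GRCm38), not the authors' build. Of the deposited symbols, 17 had become dates. The fit was tested on simulated data. Low reads limit the precision of a few members. A result on some members is not reported here.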

Additional observations from a re-analysis of the deposited data

Results flagged for a closer look

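In 56 checks of 4 libraries of 1 condition, 4 had a library whose gap to its nearest neighbour, as a share of the range, passed Dixon's 95% limit, where chance gives about 1 in 20. In unstimulated libraries at 6 h, library 3 (NFAM1-/-) held the mtDNA-encoded subunits at a median of 5.19 above all genes with the nearest library at 4.98 (share 0.904), and library 2 (NFAM1+/+) held Atp5b at 9.20 log2 CPM with the nearest at 9.08 (0.865). With the stimulus at 6 h, library 26 (NFAM1+/+) held Ndufs7 at 3.98 with the nearest at 4.33 (0.842), and Uqcrh at 6.21 with the nearest at 6.60 (0.865).

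The response to the stimulus differed between 24 h and 6 h by the interaction test of limma in 45 members. Of these 34 went toward higher and 11 toward lower, beside 35.2% and 32.0% of all genes on the deposited scale. The members with the largest differences were Cox6b2 (-2.45), Ndufa4 (-0.88), Uqcrh (-0.74), Cox7b (-0.55) and Ndufa12 (-0.46) toward lower, and Ndufs7 (1.40), Ndufc2 (0.93), Ndufv3 (0.83), Ndufv2 (0.72) and Sdhd (0.71) toward higher values at 24 h. The parts of scaling and of other cells in these differences were not tested.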

How the results depend on the processing

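Scaling decided the directions at 6 h. Scaled to each library's own total, 5 members were higher and 70 lower with the stimulus at 6 h, 20 and 34 at 24 h, 12 higher with time alone, 62 and 10 with time under the stimulus, and 65 and 3 between the times. On that scale the medians of all genes were -0.86, -0.33, 0.02, 0.41 and 0.44, in the same order. Quantile normalization gave 19 higher and 35 lower at 6 h and 20 lower at 24 h, with the members' median 0.13 and 0.14 above all genes. Centring on medians gave 21 and 35 with time under the stimulus and 17 and 17 between the times. With a minimum of 2-fold the counts higher and lower were 3 and 2 (6 h), 5 and 2 (24 h), 1 and 0 (time alone), 5 and 2 (time under the stimulus) and 1 and 1 (between the times). A filter at a mean of 5 CPM set the members at 24 h 0.17 above all genes. Without the 4 libraries whose title and tag differ, that median was 0.32 and the one between the times 0.22, and 9 were higher with time alone and 7 lower between the times, as with 4 groups of 4 (7 lower).

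By genotype, unstimulated at 24 h, the 1 member called became 0 on own totals, in a fit of the 4 libraries alone, by the tag, without the 4 libraries in conflict and at 2-fold, 3 after quantile normalization and 2 with voom weights. The tag turned the median less all genes to 0.04 there, and to 0.01 with the stimulus. With the stimulus at 24 h, centring and the 5 CPM filter each called 1 member.

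Leaving out each library in turn gave 12 to 19 members higher with time alone (12 without the NFAM1+/+ library 44), and by genotype 0 to 5 for the mean, 0 to 12 with the stimulus at 6 h, 0 to 2 unstimulated and 0 to 1 stimulated at 24 h. The medians less all genes were 0.11 to 0.22 by genotype with the stimulus at 6 h, -0.18 to -0.07 unstimulated at 24 h, and 0.12 to 0.24 for genotype by stimulus.

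Over 124 called differences of named members, 3117 of the values under 27 alternatives kept call and direction, 189 lost the call and 28 changed sign. On own totals and after quantile normalization these were, at 6 h, Atp5b (-0.11 and -0.43), Atp5g3 (-0.57 and -0.33), Cox4i1 (-0.48 and -0.50), Cox5b (-0.32 and -0.08), Cox6b1 (-0.42 and -0.13), Cox8a (-0.36 and -0.05) and Sdhd (-0.59 and -0.19), on own totals alone Cox6a1 (-0.27), Ndufc2 (-0.58) and Sdhc (-0.48), and at 24 h Sdha (-0.09 and -0.08). With time under the stimulus they were Atp5g3 (0.19 and 0.07), Cox4i1 (0.01 and 0.04), Cox5b (0.03 on own totals) and Ndufa11 (-0.02 after centring), and between the times Cox4i1 (0.17 and 0.14) and Ndufb11 (0.14 on own totals). Atp5a1, outside these, also changed sign with the stimulus on own totals (-0.55 at 6 h, -0.11 at 24 h). The causes beyond the scaling itself were not tested. No paired analysis was possible because the library numbers in the titles are unique and the labels do not say which libraries share a mouse, although for each genotype the study names fewer mice than there are libraries. Depth limits Cox7a1, Atp5s, Cox6b2 and Cox6a2, with as few as 13 to 32 reads.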
